A study of Mus musculus with 4 samples.

Results

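The proteasome genes were taken as all genes on the array whose symbol starts with Psma, Psmb, Psmc, Psmd, Psme, Psmf or Psmg and a digit. The pattern took 51 symbols and 104 of 45037 probe sets. Of the 51, 49 were read by a probe set with a single symbol, of 18193 such genes in the whole table. Of the 51, Psmc3ip and Psme3ip1 are matched by symbol only (they encode interacting proteins), and Psme2 and Psme2b share 1 probe set. The other 47 genes had 100 probe sets of their own. The brightest probe set of a gene stood for it, and 42 of the 47 passed a filter at the median log2 signal of all probe sets, 3.14.

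The study measured RNA of the mouse mast cell line MC/9 on Affymetrix arrays that read each transcript with sets of short oligonucleotides, 1 array per group. The groups had received berberine plus anti-DNP IgE (BER+DNP), berberine alone at 10 microM (BER), the antibody alone at 500 microg/ml (labelled DNP) and no treatment (control). The treatment label of the combination names no doses, and those of the single agents were taken to hold for it. Treatment lasted 24 h and was followed by 6 h of culture; no times are given for the control. All groups are 1 established line from the liver of (B6 X A/J)F1 mice with a labelled age of 13 days, grown with 2-mercaptoethanol and a rat T cell supplement, and no antigen step is named. With 1 array in each group there is no replicate error; no test was made and no p-value is given, so a difference below is a difference between arrays. In such bulk RNA, fewer cells of a type and less RNA per cell cannot be told apart.

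The proteasome is the protease that degrades ubiquitin-tagged proteins in the cytosol and nucleus. Its barrel-shaped core particle is built of outer alpha rings, encoded by the Psma genes, and inner beta rings, encoded by the Psmb genes, some of which carry the cutting sites. A regulatory particle caps the core: its ATPases, the Psmc genes, unfold the substrate, and its other subunits, most Psmd genes, bind ubiquitin and remove it. In immune cells and under interferon the catalytic beta subunits can be replaced by Psmb8, Psmb9 and Psmb10, which form the immunoproteasome and favour peptides for class I antigen presentation. The transcription factor Nfe2l1 is known to raise proteasome genes together when proteasome activity is short, through antioxidant response elements in their promoters. Berberine, an alkaloid of barberry and related plants, is known to block respiration at complex I.

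The promoters of the 3 genes that differed by at least 1.5-fold in a berberine pair, and of Psmb8, the immunoproteasome counterpart of Psmb5, are given first. They are the bases before the annotated start, 5′ to 3′ on the gene's strand, from RefSeq, build GRCm38.p6, and capitals mark motif matches found on either strand. Psmb5 lies at chr14:54617996-54618245 (minus strand), Psmc6 at chr14:45329574-45329822 (plus strand) and Psmb8 at chr17:34197945-34198194 (plus strand). Psma6 has 2 annotated starts, and the windows before them lie at chr12:55383972-55384221 and chr12:55398575-55398824 (plus strand); the second start lies within the gene's annotated span, downstream of the first.
Psmb5: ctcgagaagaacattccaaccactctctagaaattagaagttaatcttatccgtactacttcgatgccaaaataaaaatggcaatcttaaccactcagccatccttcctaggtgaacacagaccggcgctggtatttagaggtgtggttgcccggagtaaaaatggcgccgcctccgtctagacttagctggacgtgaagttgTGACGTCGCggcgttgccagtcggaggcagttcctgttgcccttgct
Psmc6: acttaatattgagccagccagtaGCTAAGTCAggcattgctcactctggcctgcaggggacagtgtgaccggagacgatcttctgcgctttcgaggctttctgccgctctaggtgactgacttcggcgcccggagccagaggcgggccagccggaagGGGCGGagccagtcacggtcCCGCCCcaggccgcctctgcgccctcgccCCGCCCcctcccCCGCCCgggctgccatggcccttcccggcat
Psma6, first start: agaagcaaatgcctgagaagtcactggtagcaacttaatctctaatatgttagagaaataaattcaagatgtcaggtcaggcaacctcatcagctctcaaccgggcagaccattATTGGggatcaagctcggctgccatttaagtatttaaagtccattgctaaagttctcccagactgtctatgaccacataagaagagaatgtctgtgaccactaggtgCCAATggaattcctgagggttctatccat
Psma6, second start: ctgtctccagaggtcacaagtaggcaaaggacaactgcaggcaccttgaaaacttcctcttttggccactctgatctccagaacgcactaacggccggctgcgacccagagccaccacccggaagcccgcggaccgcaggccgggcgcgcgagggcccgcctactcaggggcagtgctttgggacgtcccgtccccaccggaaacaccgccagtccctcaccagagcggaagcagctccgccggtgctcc
Psmb8: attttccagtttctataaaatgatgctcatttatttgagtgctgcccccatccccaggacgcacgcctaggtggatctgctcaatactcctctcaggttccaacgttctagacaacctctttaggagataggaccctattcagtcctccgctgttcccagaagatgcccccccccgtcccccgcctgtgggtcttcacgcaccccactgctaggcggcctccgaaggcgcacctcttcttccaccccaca

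The motifs searched were the antioxidant response element TGACNNNGC, the CCAAT box and the GC box GGGCGG. Psmb5 has the antioxidant response element as TGACGTCGC from 47 to 39 bases before its start, and Psmc6 has it on the other strand as GCTAAGTCA from 226 to 218 bases before its start. Psmc6 also has 4 GC boxes, the first Psma6 window has 2 CCAAT boxes, and the second Psma6 window and Psmb8 have no match to these letters. Over windows of 250 bases before to 50 after the start, 40 genes had an entry, with Psme2 counted here beside the 47; Psmb1, Psmb2, Psmb7, Psma8, Psmc3, Psmd3, Psmd7 and Psmg2 had none. The antioxidant response element stood in 6 of the 40 (15.0%), against 14.0% of 27025 genes. Its other carriers were Psmb6, Psmd9, Psmd12 and Psme4. The CCAAT box stood in 14 of 40 (35.0%), against 41.1% of genes, and the GC box in 23 of 40 (57.5%), against 38.2%. Among genes past the filter with an entry, the 6 with the antioxidant response element had median berberine differences of -0.41 without the antibody and -0.15 with it, and the 29 without it had -0.24 and -0.21. No test of these shares or medians was made, and a match is not a binding site.

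Proteasome genes were lower on both berberine arrays than on their partners without it, by small amounts. The median difference over the 42 genes was -0.24 (log2) for BER against control and -0.20 for BER+DNP against DNP, where all 12585 genes past the filter had medians of 0.00 and -0.02. The genes between the 25th and 75th percentiles lay between -0.35 and -0.15 without the antibody and between -0.30 and -0.10 with it. Below 0 lay 34 of 42 genes without the antibody, where 49.9% of all genes did, and 37 of 42 with it, where 53.2% did. The berberine pairs share no array. In both of them 33 of the 42 genes (78.6%) lay below 0, against 29.7% of all genes, and 4 of the 42 (9.52%) lay above 0, against 25.4% of all genes.

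Few of these differences were large. By at least 1.5-fold, 2 proteasome genes were lower in BER than in control, where 0.985% of all genes were, and 1 was lower in BER+DNP than in DNP, where 0.699% of all genes were. None of the 42 was higher by that fold in either pair, where 1.01% and 0.509% of all genes were. At a lower threshold of 0.32 (log2), 16 of the 42 were lower in BER than in control, where 7.82% of genes were, and 8 were lower in BER+DNP than in DNP, where 7.34% were. The pattern is therefore a shift of many genes by a little, below 1.5-fold for nearly all of them.

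**Figure D1:**
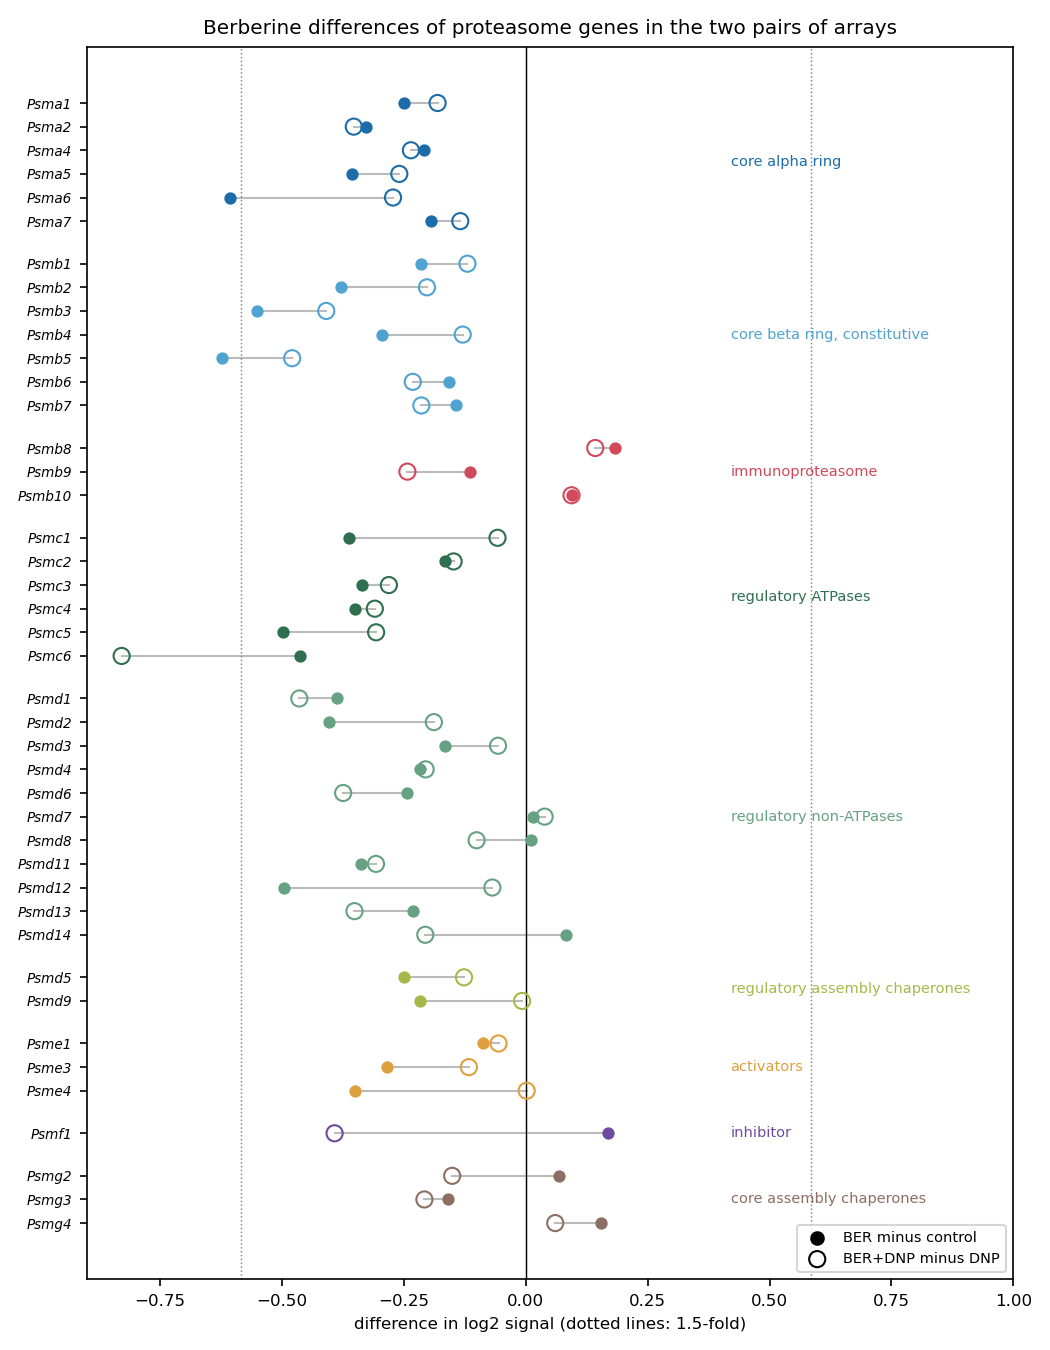
Difference in log2 signal of each of the 42 proteasome genes past the filter, with filled circles for BER minus control and open circles for BER+DNP minus DNP, grouped by role; the solid line is 0 and the dotted lines are 1.5-fold. Both circles of every core alpha, constitutive beta and ATPase gene lie left of 0, while those of Psmb8, Psmb10, Psmd7 and Psmg4 lie right of it.

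Most of the genes that were lower were bright. Proteasome genes are mostly bright on these arrays, with 29 of the 42 in the brightest of 4 equal classes of all genes, whose 3146 genes had medians of -0.02 without the antibody and -0.05 with it. In that class the 29 proteasome genes had medians of -0.29 and -0.24, and 27 of them (93.1%) lay below 0 in both berberine pairs, against 38.1% of the class's genes. In the second class from the dimmest, 5 of 7 proteasome genes lay below 0 in both pairs, against 26.3% of its genes. In the third class it was 0 of 3, against 29.6%, and in the dimmest 1 of 3, against 24.9%. After each comparison was centred within 20 bins of brightness, an alternative chosen after the data were seen, the medians of the 42 genes were -0.22 and -0.15 and the number below 0 in both pairs was again 33, against 27.9% of all genes.

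**Figure D2:**
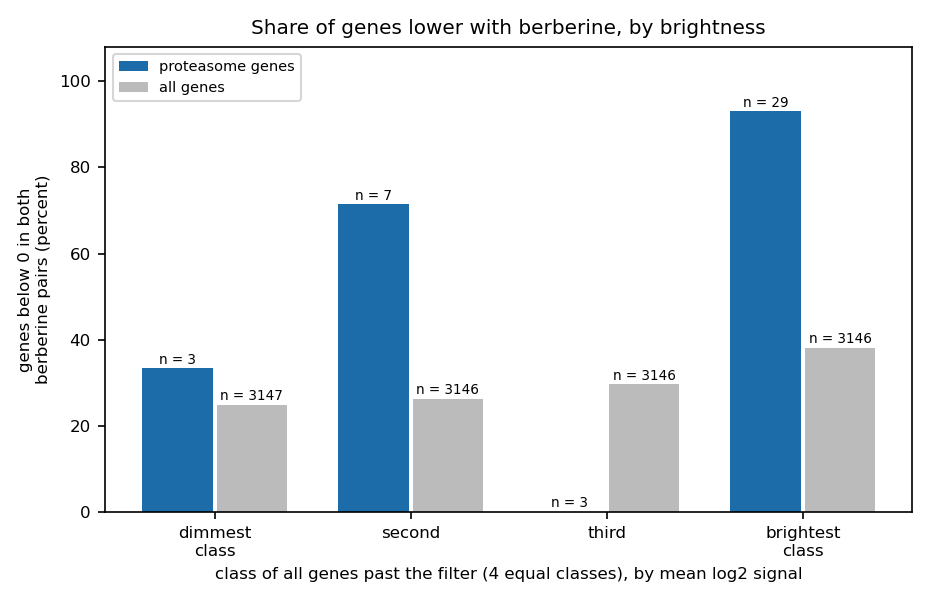
Percent of genes below 0 in both berberine pairs (y axis) in each of 4 equal classes of the 12585 genes by mean log2 signal (x axis), for proteasome genes (blue) and all genes (grey), with the number of genes above each bar. In the brightest class the share was 93.1% of 29 proteasome genes and 38.1% of all genes.

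The alpha ring, which forms the gated entrance of the core, was lower in both berberine pairs in all 6 genes past the filter. Of all genes, 29.7% were lower in both. The ring had medians of -0.29 without the antibody and -0.25 with it. Psma6 read 6.96 in BER, against 7.57 in control, and 7.33 in BER+DNP, against 7.60 in DNP. Both berberine arrays lay below both arrays without it, and the differences were -0.61 (1.52-fold lower) and -0.27 (1.21-fold lower). A dimmer Psma6 probe set past the filter gave -0.24 and -0.02. Psma2 read 6.23 in BER, against 6.56 in control, and 6.37 in BER+DNP, against 6.72 in DNP, so that its differences of -0.33 and -0.35 were nearly equal. Psma5 read 10.11 in BER, against 10.47 in control, and 10.10 in BER+DNP, against 10.36 in DNP, differences of -0.36 and -0.26. Psma1 (-0.25 and -0.18), Psma4 (-0.21 and -0.24) and Psma7 (-0.19 and -0.13) had the smaller differences of the ring. A dimmer Psma7 probe set past the filter gave 0.12 and 0.01, in the other direction. Psma3 was below the filter, with 0.18 and -0.17.

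The constitutive beta ring was lower in both pairs in all 7 genes, where 29.7% of all genes were, with medians of -0.29 and -0.21. Psmb5, which carries the chymotrypsin-like site and is the main target of proteasome inhibitor drugs, had the largest difference of the ring. It read 6.21 in BER, against 6.84 in control, and 6.43 in BER+DNP, against 6.91 in DNP. The berberine arrays lay below both others, by 0.62 (1.54-fold lower) and 0.48 (1.39-fold lower) on the log2 scale. Psmb3, a structural subunit, read 8.57 in BER, against 9.12 in control, and 8.73 in BER+DNP, against 9.14 in DNP, differences of -0.55 and -0.41. Its second probe set gave -0.36 and -0.25, in the same direction. Psmb2, another subunit without a cutting site, read 9.57 in BER, against 9.95 in control, and 9.63 in BER+DNP, against 9.83 in DNP, differences of -0.38 and -0.20. Psmb6 and Psmb7, which carry the caspase-like and trypsin-like sites, had -0.16 and -0.23, and -0.14 and -0.21. Psmb1 (-0.22 and -0.12) and Psmb4 (-0.29 and -0.13) completed the ring. The catalytic subunits thus spanned the largest and the smallest differences of the ring in BER against control.

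Of the 3 immunoproteasome subunits, 2 were higher in both berberine pairs, where 25.4% of all genes were, and 1 was lower in both, where 29.7% were. Psmb8, which takes the place of Psmb5, read 6.06 in BER, against 5.87 in control, and 6.04 in BER+DNP, against 5.89 in DNP. Both berberine arrays lay above both others, by 0.18 and 0.14 (log2), where Psmb5 had -0.62 and -0.48. Psmb10, which takes the place of Psmb7, read 5.21 in BER, against 5.11 in control, and 5.22 in BER+DNP, against 5.13 in DNP. It was higher by 0.09 in both pairs, where Psmb7 had -0.14 and -0.21. Psmb9, which takes the place of Psmb6, read 6.21 in BER, against 6.32 in control, and 6.21 in BER+DNP, against 6.45 in DNP. Its differences of -0.11 and -0.24 were close to the -0.16 and -0.23 of Psmb6. The second Psmb8 probe set was below the filter and gave 0.20 and 0.04. With 1 array per group the differences of Psmb8 and Psmb10 have no error to be set against. The 25th and 75th percentiles of all genes were -0.15 and 0.14 without the antibody and -0.15 and 0.11 with it. Psmb10 lay within these ranges in both pairs, and Psmb8 lay a little above them.

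**Figure D3:**
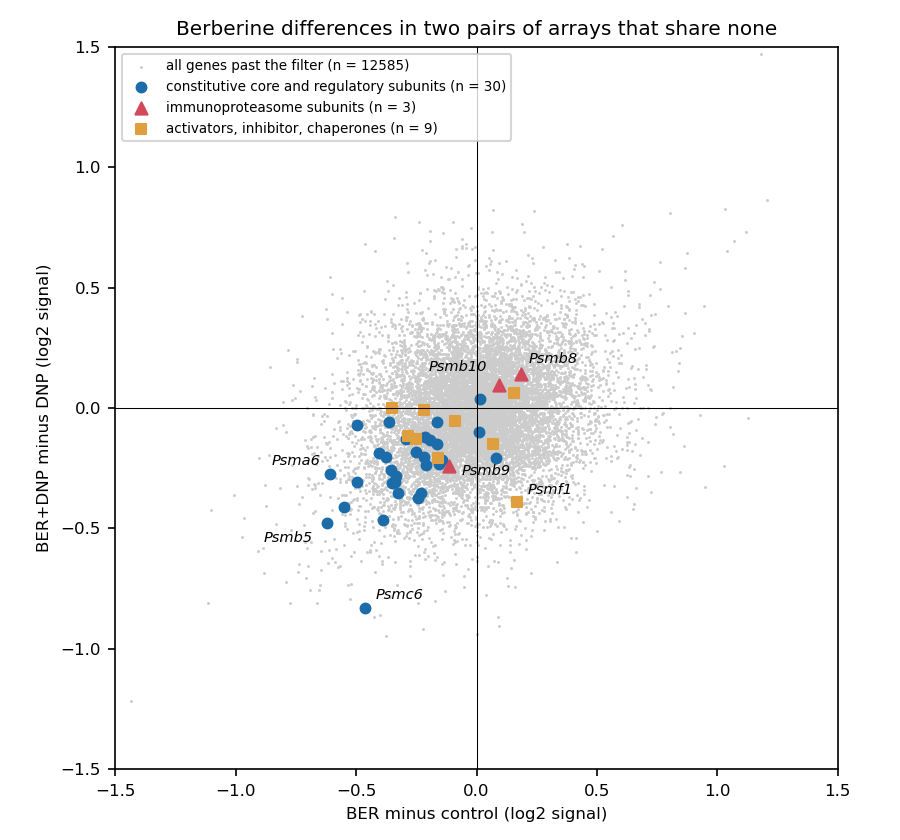
Difference in log2 signal of BER minus control (x axis) and of BER+DNP minus DNP (y axis) for 12585 genes (grey), 30 constitutive core and regulatory subunits (blue circles), 3 immunoproteasome subunits (red triangles) and 9 activators, inhibitor and chaperones (orange squares). Of the 30 constitutive subunits, 27 lie in the lower left quadrant, while Psmb8, Psmb10, Psmg4 and the constitutive subunit Psmd7 lie in the upper right.

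The ATPases of the regulatory particle were lower in both pairs in all 6 genes, where 29.7% of all genes were. Their medians were -0.36 without the antibody and -0.29 with it. Psmc6 read 5.48 in BER, against 5.94 in control, and 5.61 in BER+DNP, against 6.43 in DNP. The DNP array stood above the other arrays here, and the differences were -0.46 (1.38-fold lower) and -0.83 (1.78-fold lower), the second being the largest of any proteasome gene. Both other Psmc6 probe sets were below the filter, with -0.26 and -0.17, and 0.01 and 0.23. Psmc5 read 6.06 in BER, against 6.56 in control, and 6.22 in BER+DNP, against 6.53 in DNP, differences of -0.50 and -0.31. Psmc4 read 7.46 in BER, against 7.81 in control, and 7.64 in BER+DNP, against 7.95 in DNP, differences of -0.35 and -0.31. Psmc3 (-0.34 and -0.28), Psmc1 (-0.36 and -0.06) and Psmc2 (-0.17 and -0.15) went the same way, though Psmc2 was dim, with no array above 4.09. All of these proteins sit in the ring that unfolds substrates.

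The non-ATPase subunits were lower in both pairs in 8 of 11 genes, where 29.7% of all genes were, with medians of -0.23 and -0.21. Psmd1, a large scaffold subunit of the base, read 7.78 in BER, against 8.16 in control, and 7.84 in BER+DNP, against 8.30 in DNP, differences of -0.39 and -0.46. Psmd11, a lid subunit, read 9.95 in BER, against 10.29 in control, and 9.89 in BER+DNP, against 10.19 in DNP, differences of -0.34 and -0.31. Of the other 6 Psmd11 probe sets past the filter, the 2 brightest gave -0.47 and -0.51, and -0.48 and -0.35, while the rest ranged from -0.32 to 0.04 and from -0.11 to 0.28. Psmd6, also of the lid, read 7.66 in BER, against 7.90 in control, and 7.73 in BER+DNP, against 8.11 in DNP, differences of -0.24 and -0.37. Psmd2, the other scaffold, had -0.40 and -0.19, and the ubiquitin receptor gene Psmd4 -0.22 and -0.21. Dimmer Psmd4 probe sets past the filter gave -0.25 and 0.04, and -0.39 and -0.14. The lid genes Psmd12 (-0.50 and -0.07), Psmd13 (-0.23 and -0.35) and Psmd3 (-0.17 and -0.06) were lower in both. The exceptions were Psmd14, which encodes the deubiquitinase of the lid (0.08 and -0.21), its partner Psmd7 (0.01 and 0.04) and Psmd8 (0.01 and -0.10). Psmd7 and Psmd8 were dim, with no array above 4.25 and 3.78.

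Activators replace the regulatory particle at the ends of the core. Psme3, of the nuclear activator ring, read 5.74 in BER, against 6.02 in control, and 5.87 in BER+DNP, against 5.99 in DNP, differences of -0.29 and -0.12. Psme4, the large nuclear activator, read 5.01 in BER, against 5.36 in control, and 5.19 in both BER+DNP and DNP. Its difference of -0.35 without the antibody had no counterpart with it (0.00). A dimmer Psme4 probe set past the filter gave -0.26 and 0.21. It was thus lower with berberine in the pair without the antibody and higher with berberine in the pair with it. Psme1, of the interferon-inducible activator ring, read 4.02 in BER, against 4.11 in control, and 4.25 in BER+DNP, against 4.30 in DNP, differences of -0.09 and -0.06. The probe set shared by Psme2 and Psme2b gave -0.07 and -0.14.

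The inhibitor and the chaperones followed the subunits only in part. Psmf1, known as an inhibitor of the core in the test tube, read 7.22 in BER, against 7.05 in control, and 7.03 in BER+DNP, against 7.42 in DNP, differences of 0.17 and -0.39. Its other probe sets were below the filter. Of the chaperones of the regulatory base, Psmd5 read 3.33 in BER, against 3.58 in control, and 3.28 in BER+DNP, against 3.41 in DNP. Psmd9 read 6.15 in BER, against 6.37 in control, and 6.10 in BER+DNP, against 6.11 in DNP. The differences were -0.25 and -0.13 for Psmd5, which was dim, and -0.22 and -0.01 for Psmd9. A dimmer Psmd9 probe set past the filter gave 0.00 and -0.04. Psmd10 was below the filter, with -0.10 and -0.41. Of the chaperones that build the core, Psmg3 read 4.02 in BER, against 4.18 in control, and 4.04 in BER+DNP, against 4.25 in DNP. Psmg4 read 5.43 in BER, against 5.27 in control, and 5.42 in BER+DNP, against 5.36 in DNP, differences of 0.15 and 0.06. Psmg2 read 3.66 in BER, against 3.59 in control, and 3.36 in BER+DNP, against 3.51 in DNP, and Psmg1 was below the filter. Together with the 3 activators, these groups held 9 genes, of which 5 were below 0 in both berberine pairs. The 30 constitutive core and regulatory subunits held 27, where the share of all genes was 29.7%.

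The tissue-restricted core genes gave only weak signals. Psma8, of the testis, lay between 3.01 and 3.20 and Psmb11, of the thymus, between 2.44 and 2.77, both with means below the filter. Of the genes matched by symbol only, Psmc3ip gave -0.01 and -0.06 and Psme3ip1 0.08 and -0.34.

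**Figure D4:**
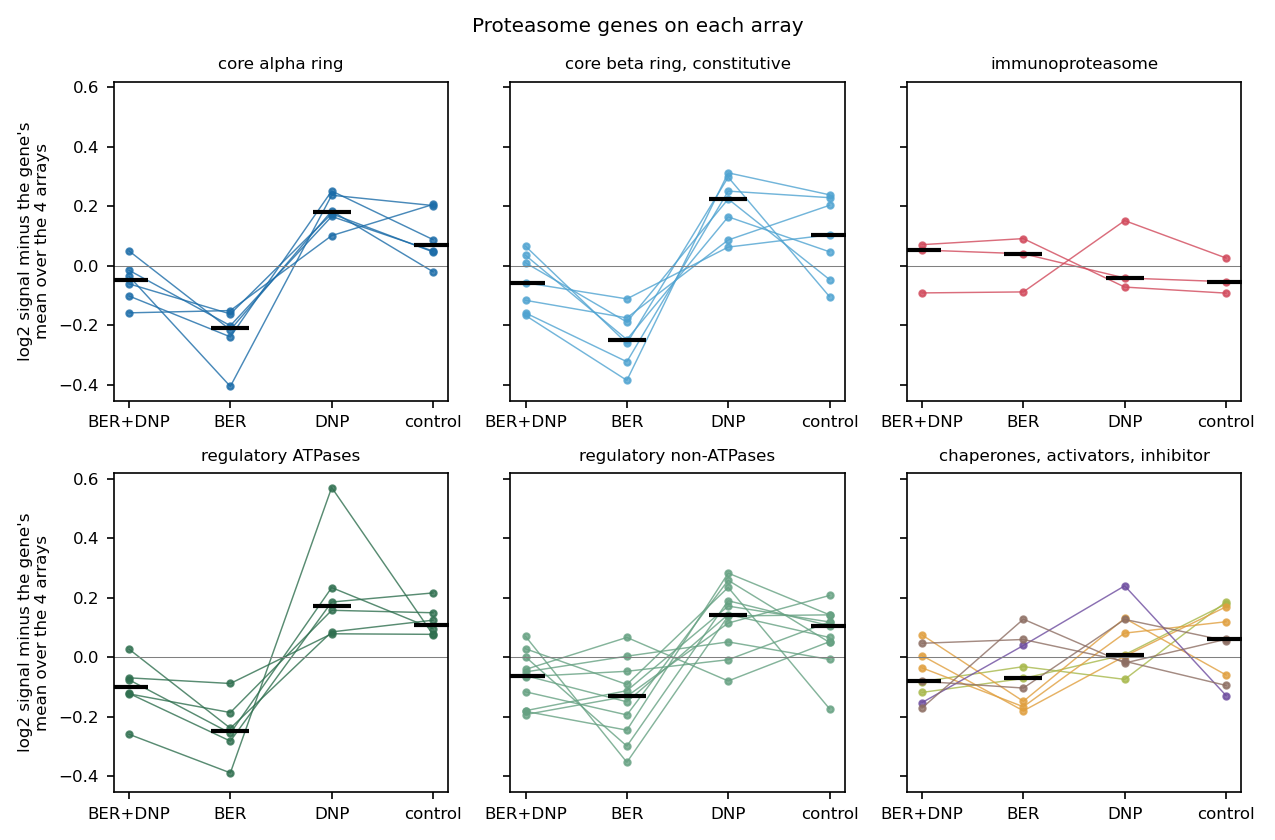
Log2 signal of each proteasome gene past the filter minus the gene's own mean over the 4 arrays (y axis), on the BER+DNP, BER, DNP and control arrays (x axis), with a line per gene and a black bar for the median of each panel; panels are the gene groups, and the last holds the chaperones, activators and inhibitor. In the alpha, constitutive beta, ATPase and non-ATPase panels the median is lowest on the BER array and highest on the DNP array.

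Anti-DNP IgE gave smaller differences, in the other direction for most of the 42 genes. Their medians were 0.06 in DNP against control and 0.08 in BER+DNP against BER, where all genes had 0.02 and 0.00. In the brightest class the 29 proteasome genes had 0.08 and 0.13, where all genes of the class had 0.04 and 0.00. The 15 probe sets past the filter that were not the brightest of their gene had medians of -0.02 and 0.14. These 15 read fewer genes, and Psmd11 supplied more of them than any other gene, so their medians are not of the same genes. With the median of each gene's probe sets, the proteasome genes had a median of 0.04 in DNP against control. Above 0 lay 28 genes without berberine, where 53.3% of all genes did, and 29 with it, where 48.8% did. These pairs also share no array, and 22 of the 42 genes (52.4%) lay above 0 in both, against 29.4% of all genes, while 7 (16.7%) lay below 0 in both, against 26.0%. No proteasome gene reached 1.5-fold in either pair, where 1.43% and 0.914% of all genes did in either direction. At the lower threshold 4 genes were higher in DNP than in control, where 7.64% of genes were, and 3 were higher in BER+DNP than in BER, where 6.13% were. By group, 5 of 6 alpha ring genes, 5 of 7 constitutive beta genes and 4 of 6 ATPase genes lay above 0 in both antibody pairs. The share of all genes was 29.4%. So did 5 of 11 non-ATPase genes, and 1 of 3 each of the immunoproteasome, activator and core chaperone genes. Neither the inhibitor nor any regulatory chaperone gene did, and both such chaperone genes past the filter lay below 0 in both. Psmb6 had the largest difference in both pairs together, with 0.40 and 0.33, followed by Psmc6 (0.49 and 0.13), Psmd14 (0.41 and 0.12) and Psmb7 (0.27 and 0.20). Psmb8 (0.02 and -0.02) and Psmb10 (0.01 and 0.01) differed least among the beta subunits.

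With both agents, BER+DNP against control, the median was -0.15, where all genes had 0.00, and 34 of the 42 genes lay below 0, where 50.0% of all genes did. None reached 1.5-fold, where 1.78% of genes did, and 7 were lower by the lower threshold, where 7.65% of genes were. This comparison shares its arrays with the ones above and is no further check on them. The lowest were Psmb5 at -0.41, Psmd11 at -0.40 and Psmb3 at -0.39, and the highest was Psmd14 at 0.20. The difference between the berberine differences with and without the antibody had a median of 0.03 over the 42 genes, where all genes had -0.02, and ran from -0.56 for Psmf1 to 0.43 for Psmd12.

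Other probe sets of the same genes bore on how far the shift depends on the choice of probe set. Among all 57 proteasome probe sets past the filter, 41 (71.9%) lay below 0 in both berberine pairs, against 28.9% of all probe sets past it. Among the 15 that were not the brightest of their gene, 8 (53.3%) did, with medians of -0.26 and -0.04. More of these 15 read Psmd11 than any other gene, and most proteasome genes had none among them. Among the 43 proteasome probe sets below the filter, 11 (25.6%) lay below 0 in both berberine pairs, against 24.2% of all such probe sets. The dim probe sets of these genes were thus near the share of all dim probe sets.

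Related genes without a Psm symbol were read in 4 lists. None of their genes past the filter reached 1.5-fold in any comparison. Between 0.914% and 1.78% of all genes did in the 3 comparisons with the antibody or both agents. In BER against control, 0.985% of all genes were lower and 1.01% higher by that fold. In BER+DNP against DNP, 0.699% were lower and 0.509% higher. Of 9 partners of the proteasome, 7 passed the filter, 3 (42.9%) lay below 0 in both berberine pairs, where 29.7% of all genes did, and the medians were 0.12 and -0.05. Sem1, a small subunit of the lid, was lower, at 4.17 in BER, against 4.59 in control, and 4.58 in BER+DNP, against 4.78 in DNP. Ecpas (0.19 and 0.04), which encodes a proteasome adaptor, and the ubiquitin ligase gene Ube3c (0.12 and 0.21) were higher in both pairs. Of 7 genes of transcriptional control, 4 passed the filter, 1 lay below 0 in both berberine pairs, and the medians were 0.05 and 0.18. Nfe2l1 read 5.89 in BER, against 5.95 in control, and 6.03 in BER+DNP, against 5.77 in DNP, differences of -0.07 and 0.26. Nfe2l2, of the same family, was dimmer and higher in both, at 3.86 in BER, against 3.29 in control, and 3.64 in BER+DNP, against 3.36 in DNP. The NF-Y subunit genes Nfyc (-0.11 and -0.30) and Nfyb (0.17 and 0.10) went opposite ways.

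Of 15 genes of ubiquitin and of the delivery of its substrates, 9 were read and 8 passed the filter. Of the 8, 3 (37.5%) lay below 0 in both berberine pairs, where 29.7% of all genes did. The medians were -0.03 and 0.00. The shuttle genes Rad23b (-0.30 and -0.46) and Ubqln2 (-0.02 and -0.43) were lower and the zinc finger gene Zfand5 (0.26 and 0.11) was higher. Of 9 genes of class I antigen processing, 8 were read and 6 passed the filter. Of the 6, 1 (16.7%) lay below 0 in both berberine pairs, where 29.7% of all genes did. The medians were -0.02 and -0.13. The class I light chain gene B2m had -0.14 and -0.17, and the peptide transporter genes Tap1 and Tap2 had 0.03 and -0.13, and -0.25 and 0.07.

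Values of the array controls and of cell type markers are given here, whether or not they moved with berberine. Their part in the proteasome differences was not tested. The array's beta-actin controls had berberine differences of -0.57 and -0.59 at the 5′ end and of -0.31 and -0.22 at the 3′ end, while those for Gapdh had 0.05 and -0.08, and -0.03 and 0.02. Poly-A control transcripts, added during preparation, had medians of -0.43 and -0.13, and hybridisation controls had 0.04 and 0.13. Of 13 mast cell markers 6 passed the filter: Kit, Fcer1a, Ms4a2, Cpa3, Tpsab1, Mitf and Ptprc did not, so the labelled cell type is only weakly borne out by these signals. The mean log2 signal of the 13 was 3.41 in BER+DNP, 3.37 in BER, 3.40 in DNP and 3.27 in control. Of 8 epithelial markers 7 passed, with Cdh1 below the filter and means of 6.46 in BER+DNP, 6.35 in BER, 6.59 in DNP and 6.52 in control. Among them the gap junction gene Gja1 read 9.36 in BER, against 10.47 in control, and 9.48 in BER+DNP, against 10.29 in DNP. Its differences of -1.12 and -0.81 were larger than those of the other 6 markers past the filter, which ran from -0.26 to 0.20 and from -0.18 to 0.13. For the antibody, Mcpt4 of the mast cell list had 0.60 in DNP against control and Epcam of the epithelial list 0.67 in BER+DNP against BER. No marker was at 0 on the log2 scale.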

How the data were processed

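The authors deposited log2 signals of 45037 probe sets and 64 control probe sets on 4 arrays, made with Affymetrix Expression Console, per the submitters' processing notes. For the version and the summary algorithm the sources used here give nothing. The log2 scale was read from the values, and the median signals of the arrays, 3.14 in BER+DNP, 3.15 in BER, 3.14 in DNP and 3.13 in control, were near-equal, so no further normalization was applied. Symbols came from GEO's platform annotation; all 100 proteasome probe sets matched RefSeq (GRCm38.p6) by gene identifier and symbol. With the control probe sets set apart, a gene was its brightest probe set, kept if its mean log2 signal was at or above 3.14, the median of 45037 probe sets. Differences are between 2 arrays and were not tested; each group holds 1 array, which limits the precision. The steps were tested on simulated data. Python 3.11.15, numpy 2.4.6 and pandas 2.3.3 were used.

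The members, gene lists and alternatives were chosen with earlier results of these data known. Named are all immunoproteasome, activator and inhibitor genes, every proteasome gene at least 1.5-fold apart, and in each other group of proteasome genes and each of the 4 lists of related genes the 3 with the largest mean berberine difference; other genes are given in brief. Of the cell type markers past the filter, those at least 1.5-fold apart are named, chosen after their values were seen. Nfe2l1 falls outside this rule and was named after its values were seen, because it is the known regulator of these genes.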

Additional observations from a re-analysis of the deposited data

Results flagged for a closer look

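Psmf1 and Psme4 are given for differences that pointed opposite ways, by at least 0.1 (log2) each, in pairs of arrays under the same contrast; the difference between the pairs was not tested, since each group holds 1 array. Psmf1 had a berberine difference of 0.17 in BER against control and of -0.39 in BER+DNP against DNP. Its antibody difference was 0.37 in DNP against control and -0.19 in BER+DNP against BER. Psme4 had an antibody difference of -0.17 in DNP against control and of 0.19 in BER+DNP against BER. Its dimmer probe set past the filter gave -0.22 and 0.25.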

How the results depend on the processing

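No paired analysis was possible because each group holds 1 array, and for the same reason no array could be left out. The medians of the proteasome genes kept their sign under all alternatives run: from -0.27 to -0.17 in BER against control, -0.22 to -0.13 in BER+DNP against DNP, 0.02 to 0.08 in DNP against control, 0.06 to 0.11 in BER+DNP against BER and -0.16 to -0.07 in BER+DNP against control. The genes below 0 in both berberine pairs numbered 29 of 42 with quantile normalization, against 27.7% of all genes, and 23 of 32 with the median of a gene's probe sets, against 28.7%; the alternatives run gave 23 to 34. Counts at 1.5-fold were less stable. In BER against control, where 2 genes passed, the count was 1 with the median of a gene's probe sets, 0 with quantile normalization, 0 with 32 added to the signals and 1 after centring within brightness bins, which was chosen after the data were seen. In BER+DNP against DNP, where 1 gene passed, it was 0 when the median over a gene's probe sets was taken and 0 after 32 was added. At the lower threshold of 0.32 (log2) the counts were 16 in BER against control, 8 in BER+DNP against DNP, 4 in DNP against control, 3 in BER+DNP against BER and 7 in BER+DNP against control; the lower threshold itself makes these larger. Dim probe sets limit what can be said of Psmc2, Psmd5, Psmd7, Psmd8, Psmd12, Psme1, Psmg2 and Psmg3.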
